A study of Mus musculus with 2 samples.

Results

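The genes of the mouse major histocompatibility complex (MHC, called H2 in the mouse) and of antigen presentation were followed in 2 technical poly(A) RNA sequencing libraries of the small intestine of 1 female C57BL/6J mouse, an adult of 10 weeks. The members are the protein-coding genes whose GENCODE symbol begins with H2- or is B2m, Tap1, Tap2, Tapbp, Cd74, Ciita or Cd1d1, found through the Ensembl gene identifier. This rule took 41 of the 43346 Ensembl genes in the deposited tables, and 37 of the 41 lie on chromosome 17. Technical replicate 1 is called the first library and technical replicate 2 the second. The mouse carried no treatment or allele named in the labels, so the data give the level of each member in one tissue of one animal and its difference between 2 libraries of that tissue. All p-values and intervals cover counting error only, and no value speaks of a second animal.

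MHC class I molecules pair a heavy chain with beta-2 microglobulin and show peptides from inside the cell to CD8+ T cells. The classical heavy chains H2-K1 and H2-D1 are made by nearly all cells, whereas the nonclassical chains of the Q, T and M regions have narrower roles, some of them at the gut epithelium. MHC class II molecules pair an alpha with a beta chain, carry peptides taken up from outside, and are known from B cells, dendritic cells, macrophages and, in the gut, enterocytes. Bulk tissue mixes these cells, so fewer cells of a type and less RNA per cell cannot be told apart.

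The promoters of members with contrasting levels are shown first, because class I and class II genes are known to be switched on through short shared elements close to the start site. RefSeq windows (GRCm38.p6, 250 bases before to 50 after the start) were matched by symbol for 34 of the 41 members. A set of 4 letter strings were searched on both strands: GGGATTCCC, the core of enhancer A bound by NF-kB; GTTTCACTT, a core of the interferon response element; TGATTGG, the Y box bound by NF-Y; and AGCAAC, a core of the X box bound by RFX. Of their matches in member windows, 0 overlapped another match. They occurred in 0.353%, 0.399%, 7.82% and 14.8% of all 32851 windows, respectively. For class I, 3 heavy-chain promoters are shown, as bases before the first annotated exon, with matches in capitals. H2-K1 (chr17:34000348-34000522, minus strand) and H2-Q2 (chr17:35342132-35342241, plus strand) were both high in the second library, and H2-Q6 (chr17:35424675-35424849, plus strand) was low.
H2-K1: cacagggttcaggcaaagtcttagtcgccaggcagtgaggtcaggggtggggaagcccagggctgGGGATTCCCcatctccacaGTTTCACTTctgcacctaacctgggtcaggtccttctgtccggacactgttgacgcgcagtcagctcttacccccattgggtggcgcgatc
H2-Q6: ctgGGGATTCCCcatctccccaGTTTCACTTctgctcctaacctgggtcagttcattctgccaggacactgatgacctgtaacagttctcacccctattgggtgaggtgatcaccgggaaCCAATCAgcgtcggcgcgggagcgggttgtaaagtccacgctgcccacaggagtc
H2-Q2: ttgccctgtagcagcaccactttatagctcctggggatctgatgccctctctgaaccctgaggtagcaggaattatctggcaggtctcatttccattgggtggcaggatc

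The class I group searched was drawn from the heavy chains, B2m and Cd1d1. Among its 23 members with a window, the enhancer A core was found in 4 (H2-D1, H2-K1, H2-Q6 and H2-Q7). The interferon response core was found in 9 of the 23, namely those 4 and H2-M3, H2-Q4, H2-Q10, H2-T3 and H2-T22. The window of H2-Q2, the most abundant heavy-chain gene in the first library, held none of the 4 strings. The stretch printed lies before transcript H2-Q2-201, which had 0.700 TPM in that library. Transcript H2-Q2-202, with 983.6 TPM in that library, has its first exon further on, at chr17:35344999. H2-Q6 held 3 of the strings in its window at a low level, and the windows of H2-K1, H2-D1 and H2-Q7 held the same 3. The Y box of H2-K1 lies outside the stretch printed. It began at +9 in that window, past the start, against -55 in H2-Q6. A match is a description of letters, and no match says only that these letters are not in this window.

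For class II, 3 chain promoters are shown because they belong to genes that differed widely in level in the second library. H2-Aa (chr17:34287824-34287963, minus strand) and H2-Eb1 (chr17:34305727-34305866, plus strand) were abundant there, whereas H2-Eb2 (chr17:34325535-34325664, plus strand) was near 1 TPM. The capitals mark the Y box and the X box core.
H2-Aa: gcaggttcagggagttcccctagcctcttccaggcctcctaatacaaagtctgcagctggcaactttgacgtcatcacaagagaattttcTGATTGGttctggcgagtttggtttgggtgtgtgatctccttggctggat
H2-Eb1: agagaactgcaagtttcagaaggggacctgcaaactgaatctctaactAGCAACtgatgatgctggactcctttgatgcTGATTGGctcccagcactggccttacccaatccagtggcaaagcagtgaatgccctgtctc
H2-Eb2: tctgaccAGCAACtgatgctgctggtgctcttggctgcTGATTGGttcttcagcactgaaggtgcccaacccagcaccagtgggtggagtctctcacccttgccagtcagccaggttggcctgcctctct

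Of the 8 class II chain and loading members with a window, 7 held the Y box in the orientation shown, and H2-DMa did not. The Y box was also found in 15 of the 23 members of the class I group. Among these were H2-M1 and H2-M11, which had 0 counts, and only H2-T22 held it in the orientation shown. The X box core was found in 2 of the 23 (H2-M3 and H2-T23). In the class II group, H2-Eb1, H2-Eb2, H2-Oa and H2-Ob also held the X box core upstream of the Y box. H2-Eb1 and H2-Eb2 held the same pair of strings, at 207.3 and 1.25 TPM in the second library and at 0.650 and 0.790 TPM in the first.

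Values are given below for the first library and then the second, whose expected counts summed to 28277875 and 24509862. Transcripts of mitochondrial genes and their nuclear copies took 72.3% and 21.6% of the TPM (transcript abundance corrected for length and scaled to a fixed sum per library). Rescaling TPM without them multiplies every other gene by 3.61 and 1.28, so a member of equal TPM held a larger share of the nuclear transcripts in the first library. Epithelial markers were present in both libraries, with Vil1, a microvillus protein, at 96.3 and 985.4 TPM. A gene with 0 counts could still hold up to 0.106 and 0.122 CPM (counts scaled to the library total). Of the 41 members, 21 reached 1 TPM in the first library and 31 in the second.

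Together the members held 0.516% and 0.834% of all TPM as deposited. Rescaled without mitochondrial transcripts, their summed TPM was 18630 and 10640, so the direction of this total depended on the scale. B2m, the light chain shared by all class I molecules, was the most abundant member in both, with 3845 and 3005 TPM. Next to it stood the nonclassical heavy-chain gene H2-Q2 in the first library, and the classical gene H2-K1 in the second. The least abundant were genes of the M region. H2-M1, H2-M10.2, H2-M10.3, H2-M10.4, H2-M10.5, H2-M10.6 and H2-M11 had 0 counts in both libraries. The M10 genes are known from neurons of the vomeronasal organ. H2-M10.1 had 0 and 1 counts and H2-M5 had 2 and 3.

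**Figure D1:**
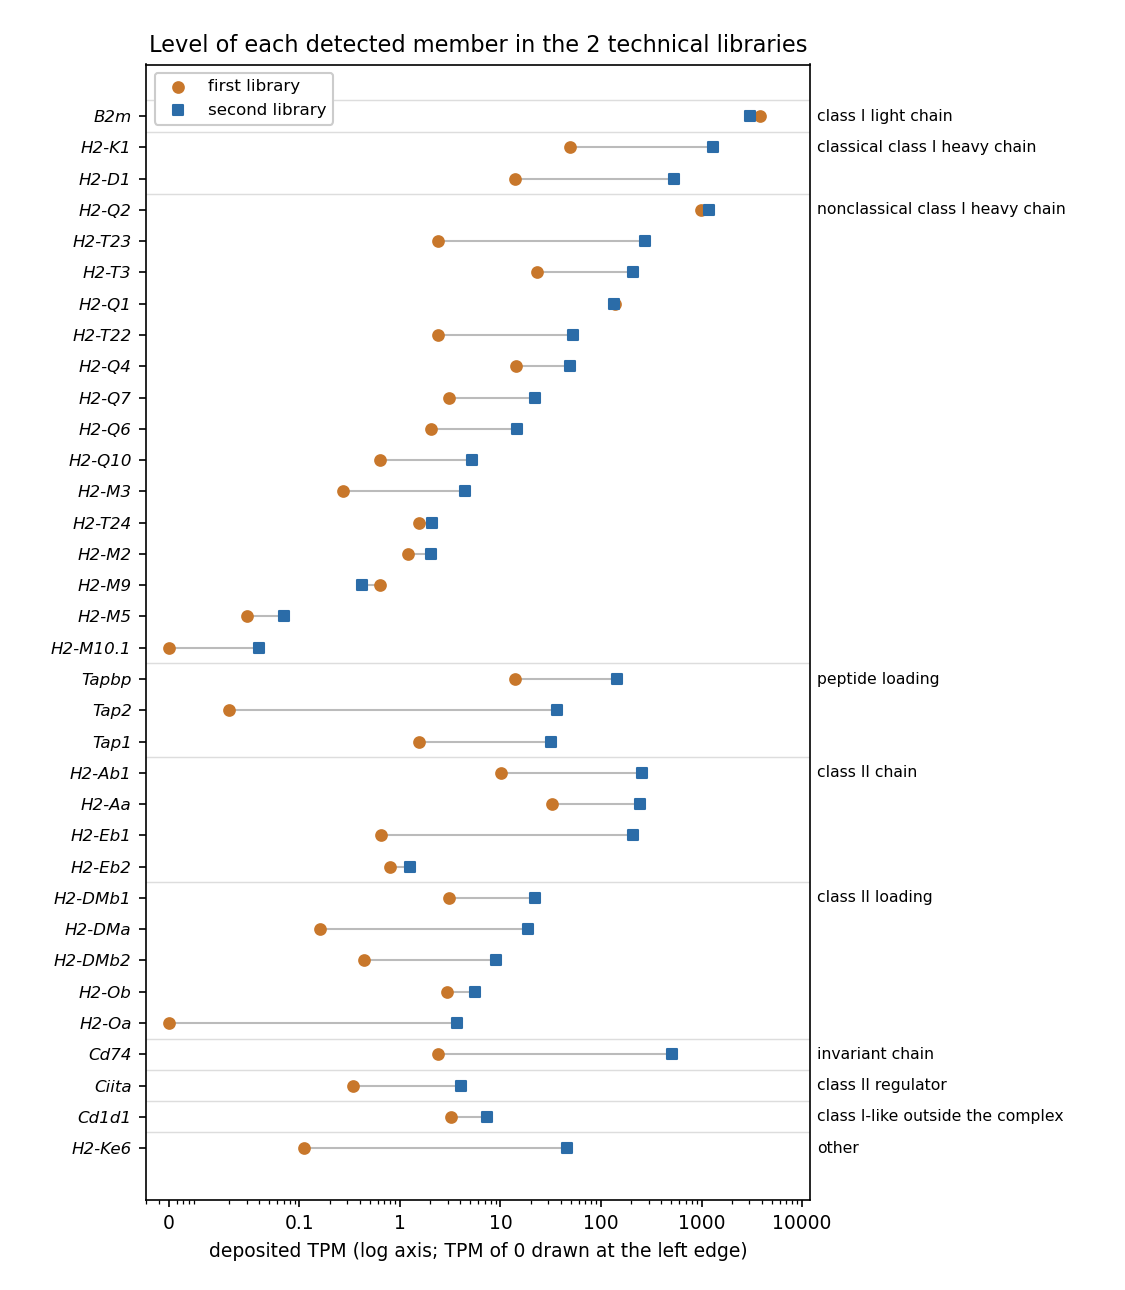
Deposited TPM on a log axis for the 34 members with TPM above 0 in either library, grouped by role (orange circles, first library; blue squares, second library; one point per library, a TPM of 0 at the left edge). B2m, H2-Q2 and H2-Q1 have nearly the same TPM in both libraries, whereas Tap2, H2-Eb1, Cd74 and H2-Ke6 lie more than 2 decades of TPM apart.

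The difference between libraries was tested gene by gene with a two-sided exact binomial test on rounded expected counts. The expected split came from library sizes scaled by the trimmed mean of M-values (TMM), and p-values were adjusted by Benjamini-Hochberg over 15194 genes. A gene was called at an adjusted p under 0.05 and a difference of 2-fold or more. Of the 32 members with 20 or more counts, 20 were higher in the second library, as were 40.2% of all tested genes. Another 3 were higher in the first library (B2m, H2-M9 and H2-Q1), as were 27.5% of all tested genes, and 9 were not called. The median log2 ratio, second over first library, was 1.97 over these members and 0.26 over all tested genes; a gene with 0 counts in one library, H2-Oa, lies above that median at its lower bound too. Scaling by total expected counts moved the median of members to 2.81 and that of all genes to 1.10. It left 23 members higher in the second library, as were 51.4% of all genes, with 0 higher in the other, as were 10.04%. The ratios below use TMM scaling, under which equal TPM gives a negative log2 ratio.

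The 2 classical class I heavy chains had higher values in the second library. H2-K1 (chr17:33996017-34000347, minus strand) had 49.8 and 1288 TPM from 2031 and 34258 counts. Its counts were 10.9-fold higher in the second library (log2 ratio 3.44 ± 0.03, counting SE). H2-D1 (chr17:35262730-35267499, plus strand) lay at 14.1 and 527.8 TPM, from 673 and 17554 counts, a 16.8-fold difference. H2-K1 was above H2-D1 in each library, with a TPM ratio of 3.53 and 2.44. Their summed level was 63.8 and 1815 TPM.

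The nonclassical heavy chains did not move as a group. Of 22 members, 13 could be tested; 5 had higher values in the second library, 2 in the first and 6 were not called. Their median log2 ratio was 0.64, against the 0.26 of all tested genes. Their summed level was 1174 and 1968 TPM as deposited, but 4242 and 2510 after rescaling without mitochondrial transcripts, so the direction of that sum depended on the scale.

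H2-Q2 and H2-Q1 stood out by their level. H2-Q2 (chr17:35342242-35346762, plus strand) had 984.3 and 1192 TPM from 27976 and 23212 counts. Its log2 ratio of -0.90 ± 0.01 lay short of 2-fold and was not called. H2-Q1 (chr17:35320405-35325099, plus strand) had 138.0 and 136.0 TPM, with a log2 ratio of -1.14 ± 0.03. H2-Q2 alone made up 79.5% of the class I heavy-chain TPM in the first library and 31.5% in the second. H2-K1 made up 4.02% and 34.03%, and H2-D1 1.14% and 14.0%. H2-Q2 was thus 19.8 times the TPM of H2-K1 in one library and 0.926 times in the other. The order of the heavy chains differed in the 2 libraries of the same tissue sample.

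**Figure D2:**
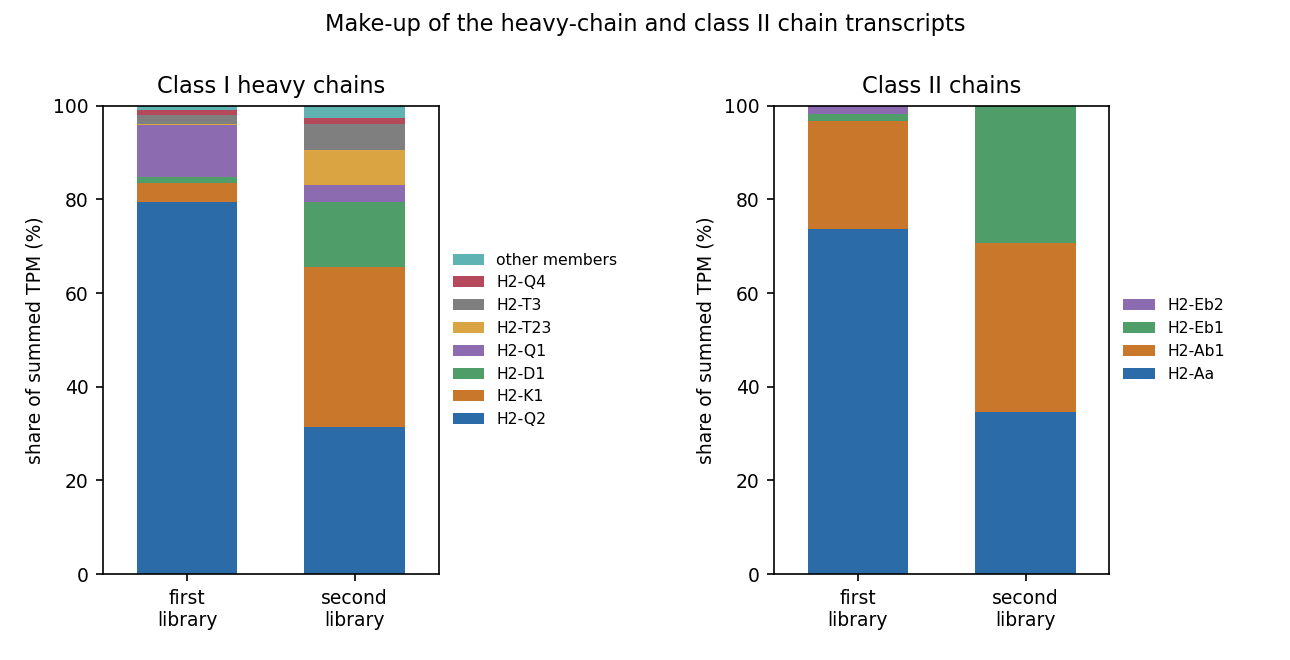
Share of the summed TPM (percent) held by each gene among class I heavy chains (left) and class II chains (right), one bar per library. H2-Q2 fills 79.5% of the heavy-chain bar in the first library and 31.5% in the second, and H2-Eb1 goes from 1.47% to 29.2% of the class II bar.

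The T region held the nonclassical genes with known roles in the gut and in surveillance by natural killer cells. H2-T3 encodes the thymus leukaemia antigen, a ligand of CD8 alpha homodimers that is known from intestinal epithelium. It stood at 23.2 and 210.2 TPM, from 1323 and 7901 counts, 3.85-fold higher in the second library. H2-T23 encodes Qa-1, which is read by CD94-NKG2 receptors. It stood at 2.41 and 277.2 TPM, from 95 and 7001 counts, with a log2 ratio of 5.56 ± 0.15. H2-T22, a ligand of some gamma-delta T cell receptors, had 2.37 and 52.6 TPM from 126 and 1595 counts (log2 ratio 3.02). H2-T24 had 1.56 and 2.09 TPM from 92 and 79 counts, with a log2 ratio of -0.85 that was not called. In the second library H2-T23 and H2-T3 held ranks 4 and 5 among heavy chains, behind H2-K1, H2-Q2 and H2-D1.

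The remaining Q genes were lower. H2-Q4 had 14.2 and 48.9 TPM from 798 and 1691 counts, and its log2 ratio of 0.45 ± 0.06 was not called. H2-Q6 and H2-Q7, which belong to the genes encoding Qa-2, had 2.05 and 14.7 TPM and 3.10 and 21.9 TPM. Only H2-Q6 of this pair passed 2-fold, with 115 and 527 counts and a log2 ratio of 1.56, against 0.64 for H2-Q7 with 361 and 876 counts. H2-Q10, whose product is secreted by the liver, had 0.640 and 5.16 TPM from 71 and 216 counts (log2 ratio 0.97, not called). In the M region, H2-M3, which presents peptides with a formylated start, had 0.270 and 4.42 TPM from 10 and 105 counts (log2 ratio 2.70 ± 0.47). H2-M2 had 1.21 and 2.05 TPM from 48 and 46 counts and was not called (log2 ratio -0.69). H2-M9 had 17 and 7 counts.

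The similar gene-level TPM of H2-Q2 was assigned to different transcripts by the deposited model. Transcript H2-Q2-201 holds 7 exons, and its first 3 (701 bases, 610 of them coding, GC 61.9%) encode the leader and the peptide-binding domains by the usual plan of class I genes. Transcript H2-Q2-202 lacks those 3 exons and holds only 32 of the 276 bases of exon 4 of H2-Q2-201. It ends in a long exon without coding bases at chr17:35345844-35346762 (919 bases, GC 36.3%). It has 226 coding bases, against 1080 in H2-Q2-201. In the first library H2-Q2-202 had 27954 counts (983.6 TPM) and H2-Q2-201 had 22.3 (0.700 TPM). The full-length transcript thus took 0.0797% of the gene's counts (95% Wilson interval 0.0519% to 0.119%). In the second library H2-Q2-201 had 13385 counts (655.5 TPM) and H2-Q2-202 had 9827 (536.6 TPM). There the full-length transcript took 57.7% of counts (57.0% to 58.3%). By transcript, H2-Q2-201 was higher in the second library (log2 ratio 8.56) and H2-Q2-202 was higher in the first (log2 ratio -2.14). The long last exon has a near copy in H2-Q1: the 2 genes share 923 bases at 95% identity or more, so the split of reads between them rests on the deposited model. The split between the 2 transcripts of H2-Q2, whose own exons differ in GC, rests on that model too. Read coverage of these exons was not tested.

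The leading transcript assigned by the model differed in other members too. The 9 members at 10 TPM or more in both libraries with 2 or more transcripts at 1 TPM or more in either library were H2-Aa, H2-Ab1, H2-D1, H2-K1, H2-Q1, H2-Q2, H2-Q4, H2-T3 and Tapbp. In 5 of the 9 the most abundant transcript differed between libraries, as it did in 38.3% of the 2269 nuclear genes that met the same rule. For H2-Ab1, the coding transcript H2-Ab1-201 (GC 57.3%) went from 29.3% to 93.3% of the gene's TPM, and the retained-intron form H2-Ab1-203 (GC 49.5%) from 56.2% to 4.44%. For H2-K1, H2-K1-201 went from 30.8% to 86.1% and H2-K1-205 from 52.0% to 9.64%, with nearly the same GC (56.3% and 55.9%). For H2-T3, H2-T3-201 went from 90.6% to 2.63% and H2-T3-204 from 4.72% to 67.0%, again at nearly the same GC (50.9% and 50.6%). For H2-Q1 the lead passed from H2-Q1-202 (70.4%, then 33.4%) to the retained-intron form H2-Q1-203 (18.2%, then 42.4%).

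H2-Aa, H2-D1, H2-Q4 and Tapbp kept the same leading transcript in both libraries. H2-Aa-201 held 99.3% and 99.2%, H2-D1-202 held 80.2% and 90.4%, and H2-Q4-201 held 63.0% and 72.2%. Tapbp-201 held 100% and 73.0%, the rest in the second library being almost wholly the retained-intron form Tapbp-204 (26.8%). For H2-Q2 each transcript's share changed by 54.9 points, and in 17.8% of the 2269 genes a share changed by as much or more. The TPM-weighted GC of a gene's transcripts was lower in the first library in 7 of the 9 members and in 83.3% of the 2269 genes.

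**Figure D3:**
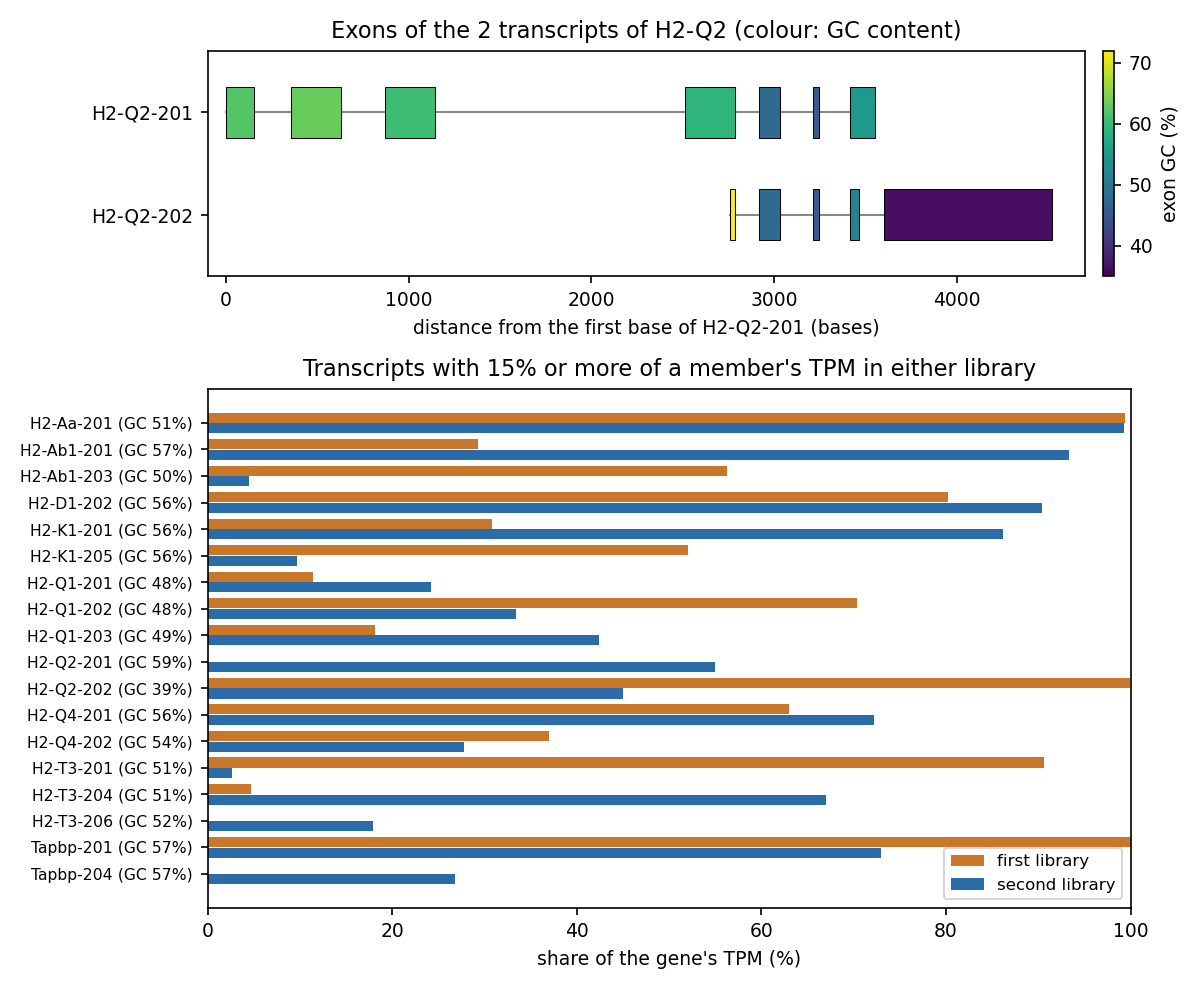
Top, exons of the 2 transcripts of H2-Q2 by distance from the first base of H2-Q2-201 (bases), coloured by GC content (percent). Bottom, share of each gene's TPM (percent) in the first (orange) and second (blue) library for member transcripts reaching 15% in either. H2-Q2-202, with its GC-poor last exon, holds 99.9% in the first library and 45.02% in the second.

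B2m differed the other way from the classical heavy chains. It (chr2:122147686-122153083, plus strand) had 76286 and 38623 counts and was 3.06-fold higher in the first library (log2 ratio -1.61 ± 0.01). B2m stood at 3.11 times the summed heavy-chain TPM in the first library and 0.794 times in the second. Its transcripts had a GC content of 41.2%, the lowest of the tested members.

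The 3 members of peptide loading were all higher in the second library. Tap1 and Tap2 form the transporter that brings peptides into the endoplasmic reticulum, and Tapbp encodes tapasin, which holds class I molecules to it. Tap1 had 1.54 and 31.7 TPM from 139 and 1658 counts, a 7.67-fold difference. Tap2 had 0.02 and 36.5 TPM from 2 and 1716 counts. The scaled count ratio of Tap2 was 553 (95% exact interval 153 to 4573), so the partners of one transporter stood at similar TPM in the second library and far apart in the first. Tapbp had 13.9 and 144.1 TPM from 1109 and 5701 counts (log2 ratio 1.73 ± 0.05).

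Class II transcripts were low in the first library and well above 100 TPM for 3 chains in the second. H2-Aa encodes the alpha chain of the I-A molecule, and it had 32.5 and 245.9 TPM from 903 and 4403 counts, 3.14-fold higher in the second. H2-Ab1, its beta-chain partner, had 10.2 and 255.9 TPM from 164 and 4767 counts, 18.7-fold higher. The alpha-to-beta ratio of TPM was 3.20 in the first library and 0.961 in the second. H2-Eb1, the I-E beta chain, had 0.650 and 207.3 TPM from 19 and 3928 counts (log2 ratio 7.02 ± 0.33). H2-Eb2 had 0.790 and 1.25 TPM from 47 and 48 counts and was not called. The 4 chains summed to 44.1 and 710.3 TPM as deposited, and to 159.3 and 906.1 after rescaling without mitochondrial transcripts.

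The I-E alpha chain is known to be missing in C57BL/6 mice, which carry a deletion in its gene. The annotation holds that gene as H2-Ea-ps, which is no member because it is not annotated as protein-coding, and it had 0 counts in both libraries. H2-Eb1 reached 207.3 TPM, 81.0% of the TPM of H2-Ab1, in a library without a count for its partner chain.

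Cd74, the invariant chain that guards the class II groove and guides the molecule to endosomes, had 2.40 and 512.9 TPM from 74 and 10526 counts. It was 91.1-fold higher in the second library (log2 ratio 6.51 ± 0.17). It stood at 0.0544 times the summed class II chains in the first library and at 0.722 times in the second. Ciita, the coactivator that governs class II genes, had 0.340 and 4.04 TPM from 51 and 386 counts (log2 ratio 2.27 ± 0.21).

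H2-DM, the exchange factor that loads class II with peptide, was low in the first library. H2-DMa had 0.160 and 18.8 TPM from 3 and 422 counts, a scaled ratio of 90.7 (95% exact interval 30.8 to 442). Its partners H2-DMb1 and H2-DMb2 had 3.09 and 22.2 TPM and 0.440 and 8.98 TPM, with 76 and 470 counts and 15 and 186 counts. Their log2 ratios were 1.99 and 2.96. They share 1081 bases at 95% identity or more, so the split between them rests on the deposited model and was not checked against reads. The deposited posterior standard deviation of each was 0 counts in the first library and 2.70 in the second. H2-O, the inhibitor of H2-DM known from B cells, had unlike subunits. H2-Oa had 0 and 65 counts, which makes it at least 14.0-fold higher there, with 3 counts taken for the library at 0. H2-Ob had 2.94 and 5.58 TPM from 161 and 181 counts and was not called (log2 ratio -0.46). Of the 11 members of class II (chains, loading, Cd74 and Ciita), 9 were higher in the second library, as were 40.2% of all tested genes. In the first library 0 were higher, against 27.5% of all tested genes, and 2 were not called. The median GC of the group was 53.5%. Of all genes from 50% to 55% GC, 57.1% were higher in the second library.

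Cd1d1, which presents lipids to natural killer T cells, had 3.21 and 7.39 TPM from 90 and 137 counts, and its log2 ratio was -0.03 ± 0.20. H2-Ke6 is named after its place in the complex but encodes a steroid dehydrogenase and no MHC protein. It had 0.110 and 46.3 TPM from 2 and 626 counts, a scaled ratio of 202 (95% exact interval 55.6 to 1670).

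**Figure D4:**
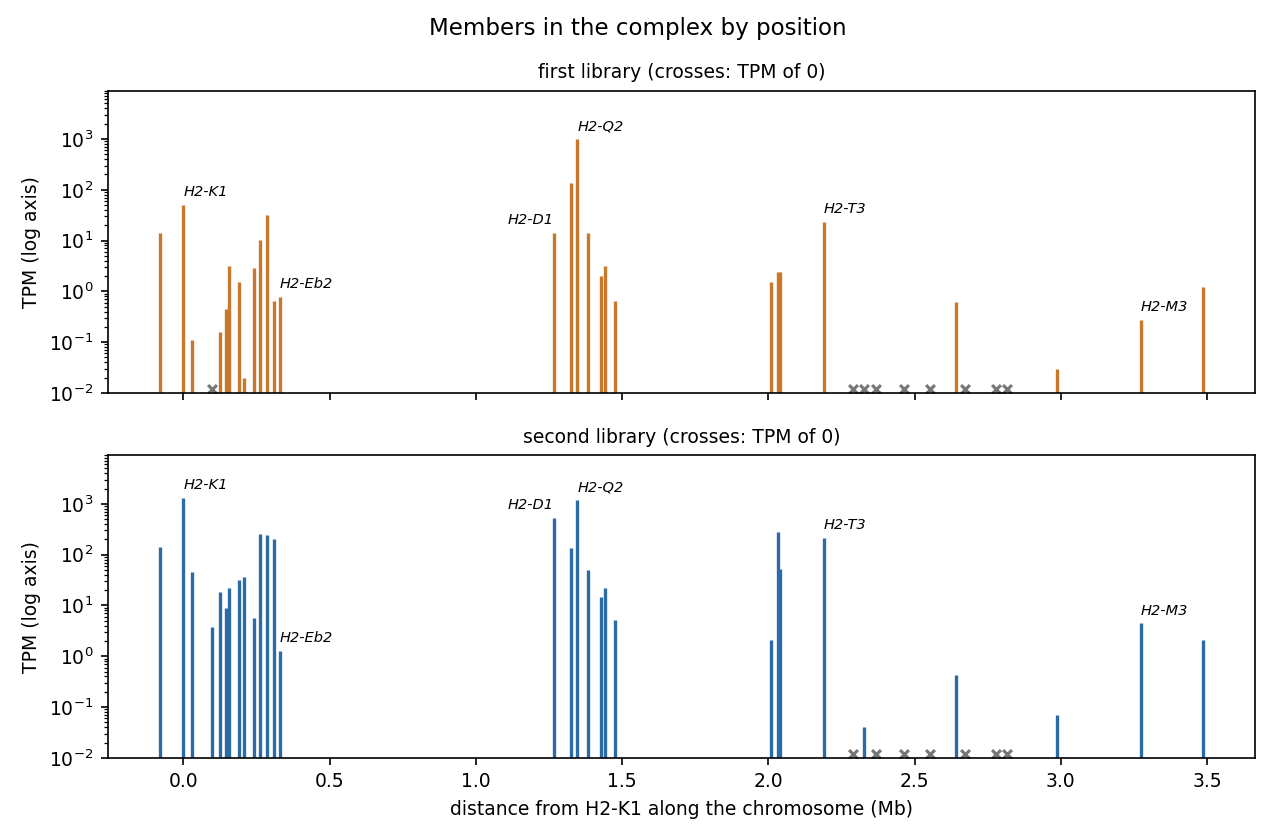
TPM on a log axis of the 37 members on chromosome 17 by distance from H2-K1 (Mb), first library above and second below, with one line per gene and crosses for a TPM of 0. Class II and loading genes between 0.1 and 0.4 Mb have higher TPM in the second library, H2-Q2 is high in both, and the M10 stretch beyond 2.2 Mb is at or near 0 in both.

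The difference between libraries varied with GC content. Over the 32 tested members, Pearson's r between transcript GC and log2 ratio was 0.71 and Spearman's rho 0.69, where all 15127 tested nuclear genes gave 0.80 and 0.85. These points share the same 2 libraries, so the values are descriptions. Of the 3 members under 45% GC, 2 were higher in the first library, as were 85.4% of all such genes, and B2m with a log2 ratio of -1.61 lay beside their median of -1.69. Of the 6 from 45% to 50%, 1 was higher in the first, as were 30.7% of all such genes. Of the 10 from 50% to 55%, 9 were higher in the second, as were 57.1% of all such genes, and the medians were 2.83 for members and 1.33 for all. At 55% or more, 11 of 13 members and 90.8% of all genes were higher in the second, and the median of members, 3.44, lay below the 4.22 of all genes. No member under 50% GC was higher in the second library and no member at 50% or more in the first.

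Relative to the GC trend of all nuclear genes, fewer members differed and some turned. After subtraction of a lowess trend, 12 members were higher in the second library, as were 17.5% of all tested genes, and 5 in the first, as were 17.6%. The 12 were H2-Aa, H2-Ab1, H2-Eb1, H2-DMa, H2-DMb2, Cd74, H2-D1, H2-M3, H2-T22, H2-T23, Tap2 and H2-Ke6. The 5 were Tapbp, H2-Q4, H2-Q6, H2-Q7 and H2-Q10. The median over members became 0.30. B2m moved to 0.23 and H2-K1 from 3.44 to 0.66, neither of them called. H2-D1 kept a log2 ratio of 2.62, Cd74 2.92 and H2-Eb1 4.79. Tapbp, with the highest GC of the tested members (60.04%), moved from 1.73 to -3.44. In the class II group 6 of the 11 were still called higher in the second library and 0 were called higher in the first, though Ciita moved from 2.27 to -0.54 without a call, while the 15 tested class I heavy chains split into 4 higher in the second and 4 in the first.

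**Figure D5:**
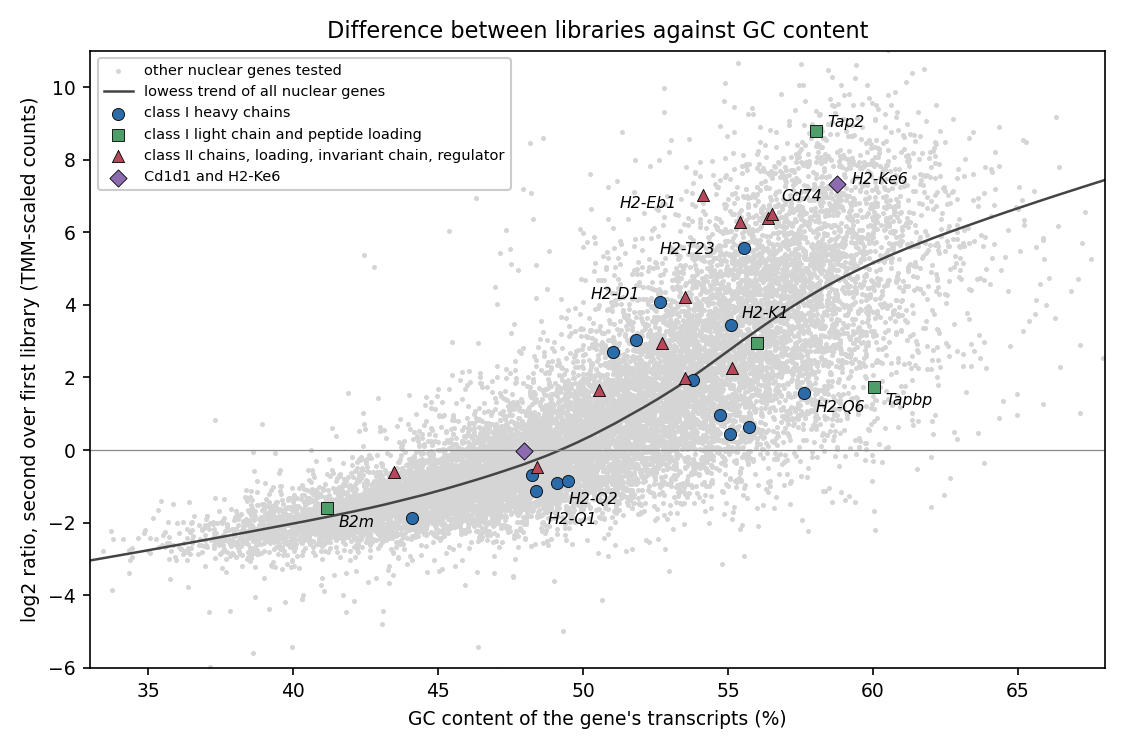
Log2 ratio of the second over the first library (TMM-scaled counts) against the GC content of a gene's transcripts (percent), with other nuclear genes in grey, their lowess trend as a line and members as coloured symbols by role; grey points beyond the axes are not drawn. Members follow the rise of the trend (r = 0.71, n = 32), with Tap2, H2-Eb1 and Cd74 above it and Tapbp and H2-Q6 below it.

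Partner genes of the pathway, taken as lists, are described by their counts beside the 40.2% and 27.5% of all genes. All 5 genes of the immunoproteasome and its activator, which cut proteins into peptides suited to class I, were higher in the second library, with a median log2 ratio of 5.15. Psme2 had 75.5 and 418.5 TPM, Psme1 61.4 and 220.9, Psmb10 0.380 and 179.4, and Psmb8 1.18 and 177.3. Of these 5, 4 stayed higher after removal of the GC trend and Psme1 did not. Among 5 genes of class I folding and trimming, 3 were higher in the first library and 1 in the second. The chaperones Calr, Pdia3 and Canx had 118.5 and 396.9, 328.2 and 187.0, and 153.3 and 131.6 TPM, and the trimming peptidase Erap1 had 51.0 and 36.7. Their log2 ratios were 0.84 for Calr, -2.03 for Pdia3, -1.78 for Canx and -1.75 for Erap1, with GC contents from 41.5% to 50.8%. With the GC trend removed, Pdia3 alone of the 5 was called (-2.08, higher in the first library), Canx (-0.24) and Erap1 (0.03) no longer were, and neither was the gene higher in the second, Tapbpl (from 2.55 to 0.77), which is named here after its values were seen.

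Class I-like genes outside the complex were mixed. Fcgrt, the receptor that carries antibodies across epithelium, had 0.440 and 60.8 TPM, from 20 and 1785 counts (log2 ratio 5.81). The iron regulator Hfe had 4.13 and 9.39 TPM and was not called. Mr1, which presents vitamin metabolites, had 2.46 and 1.69 TPM (log2 ratio -1.85, higher in the first library). Azgp1 had 3 and 2 counts and Cd1d2 none.

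Of the 10 regulators, 3 were higher in the second library, 2 in the first and 5 were not called. Irf1, an interferon-induced factor that acts on class I promoters, had 1.89 and 155.0 TPM (log2 ratio 5.07). The NF-Y subunits Nfyc and Nfya, which bind the Y box printed above, had 4.99 and 39.7 TPM and 4.64 and 17.2 TPM, with log2 ratios of 1.63 and 0.41. The third subunit, Nfyb, lies outside the naming rule and was added after its values were seen; it had 10.4 TPM in both libraries and was higher in the first (log2 ratio -1.11).

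Of the 6 genes of class II processing, 2 were higher in the second library, 1 in the first and 3 were not called. The protease Ctss, which trims the invariant chain, had 141.7 and 205.2 TPM, close in both libraries by TPM, and a log2 ratio of -0.74. The thiol reductase Ifi30 had 2.44 and 158.4 TPM (log2 ratio 4.75) and the endopeptidase Lgmn 5.94 and 54.8 (log2 ratio 2.01). March8, a ubiquitin ligase that removes class II from the surface, had 21.8 and 56.0 TPM and was not called.

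Markers of the cells that could carry class II, and of T cells, were present in both libraries, with mixed calls. Of all tested genes, 40.2% were called for the second library and 27.5% for the first. Whether any list of 5 or 10 markers departs from these shares was not tested. The 5 B cell markers summed to 6.84 and 32.0 TPM, with 4 higher in the second library and Ms4a1 higher in the first. The 10 markers of macrophages and dendritic cells summed to 19.0 and 60.4 TPM, with 3 higher in the second, 2 in the first and 5 not called. The 5 epithelial markers summed to 492.1 and 3676 TPM, with 3 higher in the second library and 2 not called. The 5 T cell markers summed to 9.46 and 37.8 TPM, with 2 higher in the second. Rescaled without mitochondrial transcripts, the sums lay closer together. They were 24.7 and 40.8 for B cells and 68.5 and 77.0 for macrophages and dendritic cells. For epithelium they were 1778 and 4690, and for T cells 34.2 and 48.2. No marker of these 4 lists had 0 counts in either library. With the GC trend removed, 17.5% of all tested genes were called for the second library and 17.6% for the first. By that measure, 1 of 5 B cell markers and 2 of 5 T cell markers were higher in the second library. In the first, 0 of either list were higher. Of the 10 markers of macrophages and dendritic cells, 1 was then higher in each library. Of the 5 epithelial markers, 3 were then higher in the first library and 1 in the second; their median log2 ratio was -1.40 in place of 2.11. The part of cell make-up in the class II difference was not tested.

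Near-identical sequence limits some of these values. Transcripts of 22 of the 41 members share 100 bases or more at 95% identity with any other gene, and those of 14 share as much with another H2- gene, the longest pairs of members being H2-DMb1 and H2-DMb2, H2-Q6 and H2-Q7 (983 bases) and H2-Q1 and H2-Q2. The deposited posterior standard deviation was 0 in both libraries for 27 members and at most 3.83% of the count in members with 20 or more counts.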

How the data were processed

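Both samples are technical libraries of 1 animal, so the tests compare these libraries and not conditions. The authors deposited gene and transcript tables per library, whose headers give expected counts, TPM, FPKM, isoform percent and a posterior standard deviation of the count; per the labels the assembly is mm10, with aligner, quantifier version and filters not given in the sources used here. The deposited expected counts were rounded to whole numbers. TPM and FPKM values were used as the authors deposited them. Isoform percent is the share of a gene's TPM, per the file headers.

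Members and lists were chosen with earlier results of these data known. Symbols and biotypes came from GENCODE M21, matched on Ensembl identifiers without version (42462 of 43346 matched). Genes with 20 or more counts over both libraries were tested by SciPy 1.17.1; log2 ratios have a prior count of 0.5. TMM sizes came from edgeR 4.0.16, and no edgeR test was possible with 1 library a side. The test was checked on simulated data. GC trends were lowess fits (statsmodels 0.14.6, span 0.3). GC is the mean over a gene's transcripts in the annotation. Shared sequence was found by BLAST 2.17.0. The text names every member, with TPM, counts and ratio at a mean of 1 TPM or more, and up to 4 most abundant genes of each list, of which 1 is not reported here. Alternatives were other scalings (DESeq2 1.42.0 size factors among them), filters, prior counts and units.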

Additional observations from a re-analysis of the deposited data

Results flagged for a closer look

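Genes of the complex that the annotation does not hold as protein-coding lie outside the members, yet 4 of them had more than 3 counts in both libraries. H2-Bl had 219 and 1777 counts, or 8.39 and 105.2 TPM, and shares up to 366 bases at 95% identity with a member (H2-Q1). H2-Q5 had 17 and 101.1 counts, or 2.55 and 13.7 TPM, and shares 1006 bases with H2-Q7. H2-T-ps had 6 and 240 counts, or 0.230 and 14.3 TPM, and shares 1068 bases with H2-T23. H2-T10 had 9 and 94 counts, or 0.1 and 2.84 TPM, and shares 1703 bases with H2-T22. In TPM, H2-Bl in the second library stood above H2-T22 and H2-Q4. How reads were split between these genes and their near copies was not tested.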

How the results depend on the processing

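Both libraries come from 1 animal, so leaving one out ends every comparison and gives levels only. Without replicate 1 or 2 the summed TPM ranged from 63.8 to 1815 for classical heavy chains, 44.1 to 710.3 for class II chains and 1174 to 1968 for nonclassical heavy chains; the mean of the last rose from 1571 to 3376 on TPM rescaled without mitochondrial transcripts. No paired analysis was possible because the 2 libraries form one group. At this depth, members under 20 counts were not tested.

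The number of members higher in the second library was 12 with the GC trend removed and 6 of the 12 tested members left without the 22 that share sequence with any gene, against 20 of 32. The number higher in the first library, 3 as reported, was 0 with total counts, 0 with deposited TPM, 5 with the GC trend removed and 7 with no fold limit. The median log2 ratio of 1.97 became 0.30 with the GC trend removed and 0.59 without shared sequence. Counts and medians stayed within 1.5 times of the reported ones under DESeq2 size factors, totals without mitochondrial transcripts and no low-count filter, and the median did under a prior count of 5.

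Of 306 single-gene log2 ratios, 238 kept direction and call, 20 lost the call, 14 gained it and 34 changed sign. Among the genes named in the text, the values that changed sign with total counts were 0.15 for H2-M2, 0.81 for Cd1d1, 0.37 for H2-Ob, 0.24 for H2-Eb2, 0.51 for Hfe and 0.10 for Ctss. With totals without mitochondrial transcripts, Cd1d1 was at 0.17. With TPM they were 0.46 for H2-M2, 0.99 for Cd1d1, 0.74 for H2-Ob, 0.27 for H2-T24, 0.33 for H2-Eb2, 0.28 for H2-Q2, 1.02 for Hfe and 0.53 for Ctss. With the GC trend removed they were -0.54 for Ciita, -3.44 for Tapbp, 0.36 for Cd1d1, -2.32 for H2-Q4, -0.36 for Tap1, -0.08 for H2-T3, -2.50 for H2-Q7, 0.23 for B2m, -1.59 for H2-Q10, 0.84 for H2-Eb2, -2.60 for H2-Q6, -0.32 for Psme1, 0.03 for Erap1, -0.41 for Nfyc, -0.62 for Nfya, 0.17 for Ctss and -0.52 for March8. The cause was not tested.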

Other observations

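Cd74 was described above by gene only; its transcripts were looked at after its values were seen. Both coding transcripts of Cd74 were found in the second library. Cd74-201 had 7461 counts (380.8 TPM, 74.3% of the gene's TPM) and Cd74-202 had 3065 (132.1 TPM, 25.8%). In the first library Cd74-201 had 65.5 counts (89.6%) and Cd74-202 had 0. A longer form of the invariant chain with an added thyroglobulin-like domain is known beside the common short form. With 74 counts for the whole gene there, a count of 0 allows up to 4.05% of them.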
